A study of Mus musculus with 2 samples.

Results

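Ing1, Cacng4 and AI428936 are 3 mouse genes whose promoters carried peaks of ubiquitylated histone H2A (uH2A) over 3 kb wide in fibroblasts. They were chosen by measured values, namely a listed peak wider than 3 kb at the promoter, and are 3 of the 661 genes with a promoter peak. AI428936 is the older name of Syne4 in the RefSeq gene table of GRCm38.p6. They were not the widest promoter peaks as a set: of 671 promoter peaks, 5 exceeded 3 kb, or 0.745%, and the widest was that of Ceacam16 at 4436 bp. AI428936 with 3617 bp, Cacng4 with 3354 bp and Ing1 with 3287 bp held the ranks from 2 to 4. Just inside the threshold lay Mpped1 with 3151 bp. The 3 genes are therefore described here by the rule, as promoter peaks over 3 kb. Because the choice rests on the wild-type tags, the peak values below are a description and carry no test.

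The study compared embryonic fibroblasts (MEFs) of Bmi1 wild-type (Bmi1 WT) and Bmi1 null (Bmi1 KO) genotype on a C57BL/6 background. Both lines came from littermates, had been immortalized with TBX2 and received no further treatment before harvest. Chromatin was precipitated with the monoclonal antibody E6C5 against uH2A and sequenced, with 1 library per genotype. The wild-type library held 6114925 mapped tags and the null library 8020248, so wild-type counts were scaled by 1.31, the ratio of these totals. Where 1 tag per position and strand or only tags free of mismatches were kept, the ratio of the totals of such tags was used instead, 1.28 and 1.37. With 1 library of each line, a difference between genotypes has no replicate check and cannot be told apart from a difference between the lines or the libraries. A range in parentheses is an exact Poisson interval after a count and a Clopper-Pearson interval after a ratio, both at 95%. These ranges cover counting error only, since repeated tags need not be independent molecules.

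Bmi1 is a subunit of Polycomb repressive complex 1, in which the partner protein Ring1B attaches a single ubiquitin to histone H2A. Bmi1 stimulates this ligase activity, and uH2A is a mark known from silenced developmental genes as well as from other parts of the genome. The null library therefore serves as the measure of signal that remained without Bmi1, antibody background included.

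Promoter sequences of RefSeq, in the build GRCm38.p6 and each 300 bases long, matched Ing1 and Syne4. They are shown because the genes were chosen by promoter peaks and the CG number of these sequences differs. The peaks are in mm8, so which bases of these sequences a peak covers was not determined. Capitals mark the dinucleotide CG, which reads the same on both strands. Ing1 has 5 such sequences, for alternative starts on the plus strand, of which those with the fewest and the most CG are printed. The first lies at chr8:11555512-11555811 and the second at chr8:11556207-11556506, while that of Syne4 lies at chr7:30314566-30314865, also on the plus strand.
Ing1, fewest CG: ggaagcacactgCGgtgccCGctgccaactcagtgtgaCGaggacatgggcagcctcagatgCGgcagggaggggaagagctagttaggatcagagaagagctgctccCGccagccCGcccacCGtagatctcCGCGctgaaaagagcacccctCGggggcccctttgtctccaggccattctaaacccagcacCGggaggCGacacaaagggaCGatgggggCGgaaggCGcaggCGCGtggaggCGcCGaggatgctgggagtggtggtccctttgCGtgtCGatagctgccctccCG
Ing1, most CG: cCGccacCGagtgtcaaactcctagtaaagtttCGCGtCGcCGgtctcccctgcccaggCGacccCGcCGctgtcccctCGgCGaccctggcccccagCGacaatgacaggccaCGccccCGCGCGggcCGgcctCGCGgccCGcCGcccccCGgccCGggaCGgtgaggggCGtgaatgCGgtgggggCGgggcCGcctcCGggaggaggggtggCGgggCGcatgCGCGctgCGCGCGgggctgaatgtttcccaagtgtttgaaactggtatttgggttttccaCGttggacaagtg
Syne4: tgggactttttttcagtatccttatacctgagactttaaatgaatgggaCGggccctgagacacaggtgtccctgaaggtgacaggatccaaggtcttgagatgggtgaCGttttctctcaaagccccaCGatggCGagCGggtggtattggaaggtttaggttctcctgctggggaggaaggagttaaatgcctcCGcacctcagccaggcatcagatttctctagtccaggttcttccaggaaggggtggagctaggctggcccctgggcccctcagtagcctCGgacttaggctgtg
The Ing1 sequences held 22 and 37 CG, numbers that 23.1% and 5.58% of the 32851 promoter sequences of this length reached. The Syne4 sequence held 7 CG, which equals the median of all promoter sequences, and 52.1% held as many. The printed Ing1 sequences were thus richer in CG than that of Syne4.

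Ing1 encodes a nuclear protein of the inhibitor of growth family, which binds methylated histone H3 through a PHD finger and belongs to a histone deacetylase complex. Its peak lay on chromosome 8 of mm8 from 11554452 to 11557738. It reached from 1586 bp below to 1701 bp above the promoter centre and covered all 2000 bp of the promoter. It thus sat nearly evenly over that centre, and its place relative to the alternative starts was not determined. The peak held 48 wild-type tags (35.4 to 63.6), or 63.0 after scaling, and 9 null tags (4.12 to 17.1). Within the 2 kb promoter alone 39 tags were wild-type and 6 null, which after scaling is a ratio of 8.53 (3.58 to 24.6). Those 39 tags were the highest promoter count among the 671 promoter peaks, whose median was 16. With 1 tag per position and strand, the promoter kept 24 wild-type and 5 null tags, a ratio of 6.16 (2.30 to 20.7). With tags free of mismatches, 24 wild-type tags and 1 null tag gave a ratio of 33.0, with an interval from 5.38 to 1356.

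Cacng4 encodes a transmembrane protein that accompanies AMPA-type glutamate receptors and is related to the gamma subunit of calcium channels. Its peak lay on chromosome 11 from 107607961 to 107611314 and reached from 2594 bp below to 760 bp above the promoter centre. The peak was thus set off toward lower coordinates, and 52.5% of it lay in the promoter. It held 44 wild-type tags (32.0 to 59.1), or 57.7 after scaling, and 10 null tags (4.80 to 18.4). Of the 44 wild-type tags, 39 lay below the promoter centre and 5 above it, beside 7 and 3 null tags. The 2 kb promoter had 19 tags in the wild-type and 8 in the null library, a ratio of 3.12 (1.30 to 8.23). With 1 tag per position and strand this ratio was 2.57 with an interval from 0.969 to 7.51, which includes 1. With tags free of mismatches, 5 wild-type and 6 null tags gave a ratio of 1.15 (0.276 to 4.50). More of the wild-type tags of this peak thus lay outside the promoter than in it, as was also the case for AI428936.

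AI428936, now Syne4, encodes nesprin-4, a protein of the outer nuclear membrane that connects the nucleus to the motor kinesin. Its peak lay on chromosome 7 from 30020664 to 30024280 and reached from 2912 bp below to 705 bp above the promoter centre. Since Syne4 lies on the plus strand, most of this peak was upstream of the start, and 47.1% of it lay in the promoter. It held 52 wild-type tags (38.8 to 68.2), or 68.2 after scaling, and 9 null tags (4.12 to 17.1). Upstream of the promoter centre there were 39 wild-type and 9 null tags, and downstream 13 wild-type tags and 0 null tags, a null count whose interval reaches 3.69. The 2 kb promoter held 22 wild-type and 5 null tags, a ratio of 5.77 (2.13 to 19.5), and with 1 tag per position and strand 15 and 5 tags, a ratio of 3.85 (1.33 to 13.5). Across all promoter peaks, 62.4% had a ratio in the 2 kb promoter whose interval lay above 1, and all 3 genes were among them with all tags. These windows overlap the peaks by which the genes were chosen, so this is a description and no test.

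**Figure D1:**
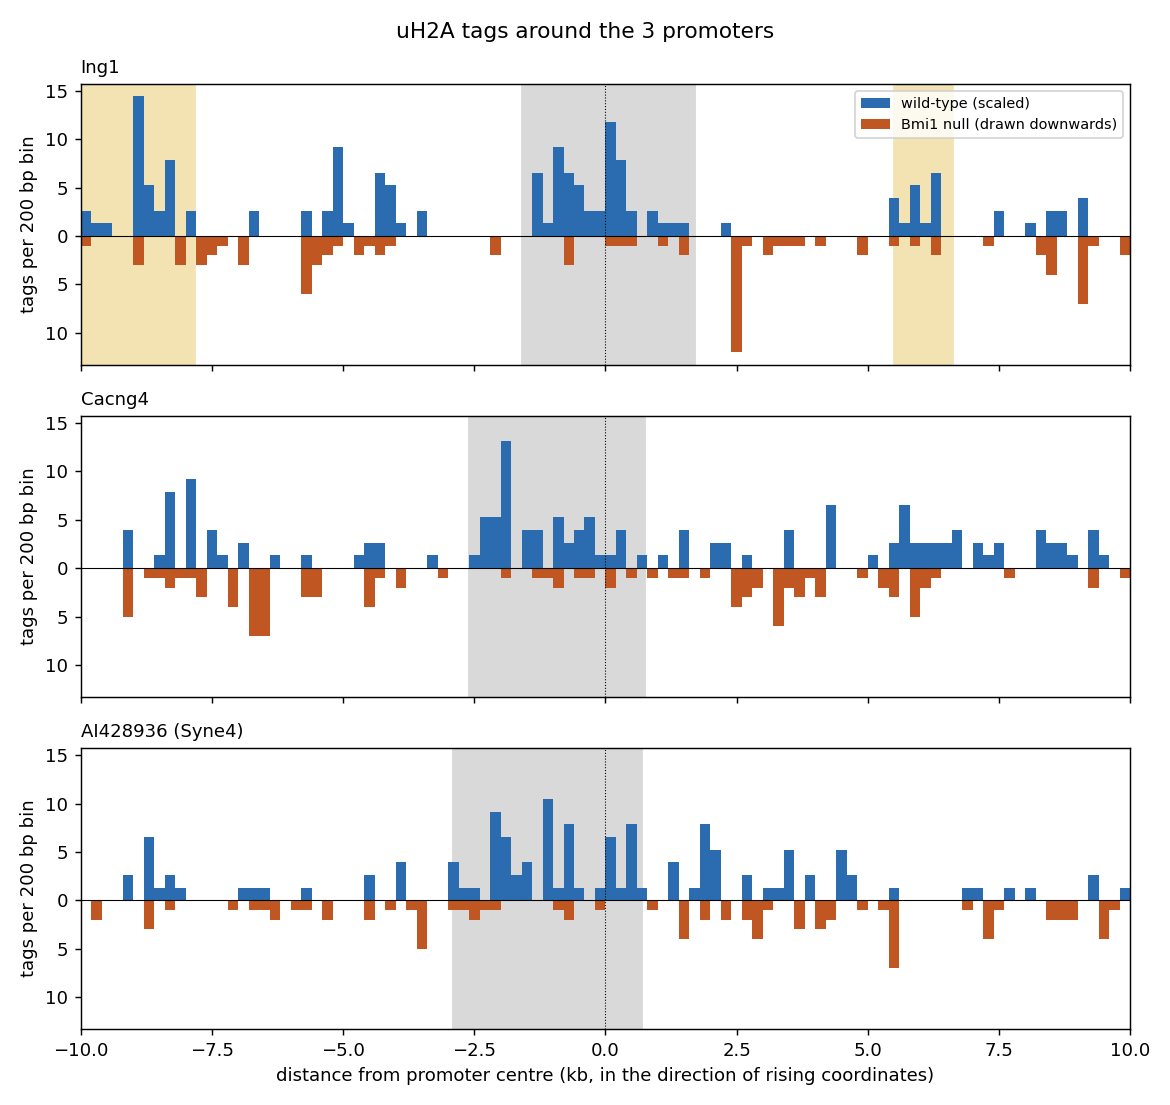
Tags in bins of 200 bp from 10 kb below to 10 kb above the promoter centre, with scaled wild-type tags drawn upwards and null tags downwards. Grey marks the peak of the gene and yellow other listed peaks. The Ing1 peak surrounds the centre, those of Cacng4 and AI428936 extend to its left, and in the Ing1 panel a bin of 12 null tags stands to the right of the peak.

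In bins of 200 bp the excess was spread over the peaks, which follows in part from their choice by width. At Ing1, 13 of the 17 bins that touched the peak had more scaled wild-type than null tags and 1 had fewer. At Cacng4 these numbers were 13 and 3 of 17, and at AI428936 they were 15 and 2 of 19. The other bins of the peaks were empty in both libraries. Outside the peaks the bins were divided nearly evenly, with 25 above and 24 below 0 at Ing1, 31 and 28 at Cacng4, and 28 and 25 at AI428936. The mean difference per bin, scaled wild-type minus null, was 3.17 tags in the Ing1 peak and 0.324 outside it. At Cacng4 it was 2.81 inside and 0.219 outside, and at AI428936 3.06 inside and 0.0256 outside. The bins outside the Ing1 peak include those of its 2 neighbouring listed peaks, and its positive mean outside rests on these bins. Cacng4 and AI428936 have no other listed peak in this range. The contrast between inside and outside follows in part from the choice of peaks.

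The place of the fullest bin in a peak depended on repeated tags in 2 of the 3 genes. In the Ing1 peak the highest difference lay from 0 to 0.2 kb above the promoter centre, with 9 wild-type tags and 1 null tag. With 1 tag per position and strand this bin kept 4 and 1, and the highest difference lay from 1 to 0.8 kb below the centre, with 4 and 0. The tallest bin of the whole Ing1 profile lay outside this peak, from 9 to 8.8 kb below the centre in a neighbouring listed peak, with 11 wild-type and 3 null tags. In the Cacng4 peak it lay from 2 to 1.8 kb below the centre, with 10 wild-type tags and 1 null tag. With repeats removed, 4 wild-type tags and 1 null tag remained there, and it was still the highest bin of that peak. In the AI428936 peak it lay from 1.2 to 1 kb below the centre, where 8 wild-type tags at 2 positions and 0 null tags were found. With repeats removed, 4 other bins of this peak were higher, and the highest value was shared by 3 of them, each with 4 wild-type and 0 null tags. Among the 658 promoters of the other promoter peaks, a difference as high in the same bin occurred in 2.43% for the bin of Ing1, 0.152% for that of Cacng4 and 2.28% for that of AI428936, with all tags. These bins were picked as the highest of peaks chosen by their wild-type tags, so the shares are a description. The lowest bin of each profile lay outside the peak. For Ing1 it was the bin from 2.4 to 2.6 kb above the centre, with 0 wild-type tags and 12 null tags at 6 positions. In Cacng4 the lowest value was shared by 2 adjacent bins, from 6.8 to 6.4 kb below the centre, each with 0 wild-type and 7 null tags, the latter at 2 and 3 positions. In AI428936 the lowest bin held 1 wild-type and 7 null tags.

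The 2 kb directly beside each peak were added as windows after the profiles had been seen. Above its peak, Ing1 had there 1 wild-type and 17 null tags, or 1 and 10 with 1 tag per position and strand. Since nearly all listed peaks end where a run of wild-type tags ends, low wild-type counts beside an edge follow in part from how the peaks were called. Over both sides, the scaled ratio in these 2 kb windows was 0.207 at Ing1, 1.02 at Cacng4 and 1.38 at AI428936. Across promoter peaks its median was 0.963 and its quartiles were 0.621 and 1.43, so Ing1 lay below the lower quartile and the other genes between the quartiles.

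**Figure D2:**
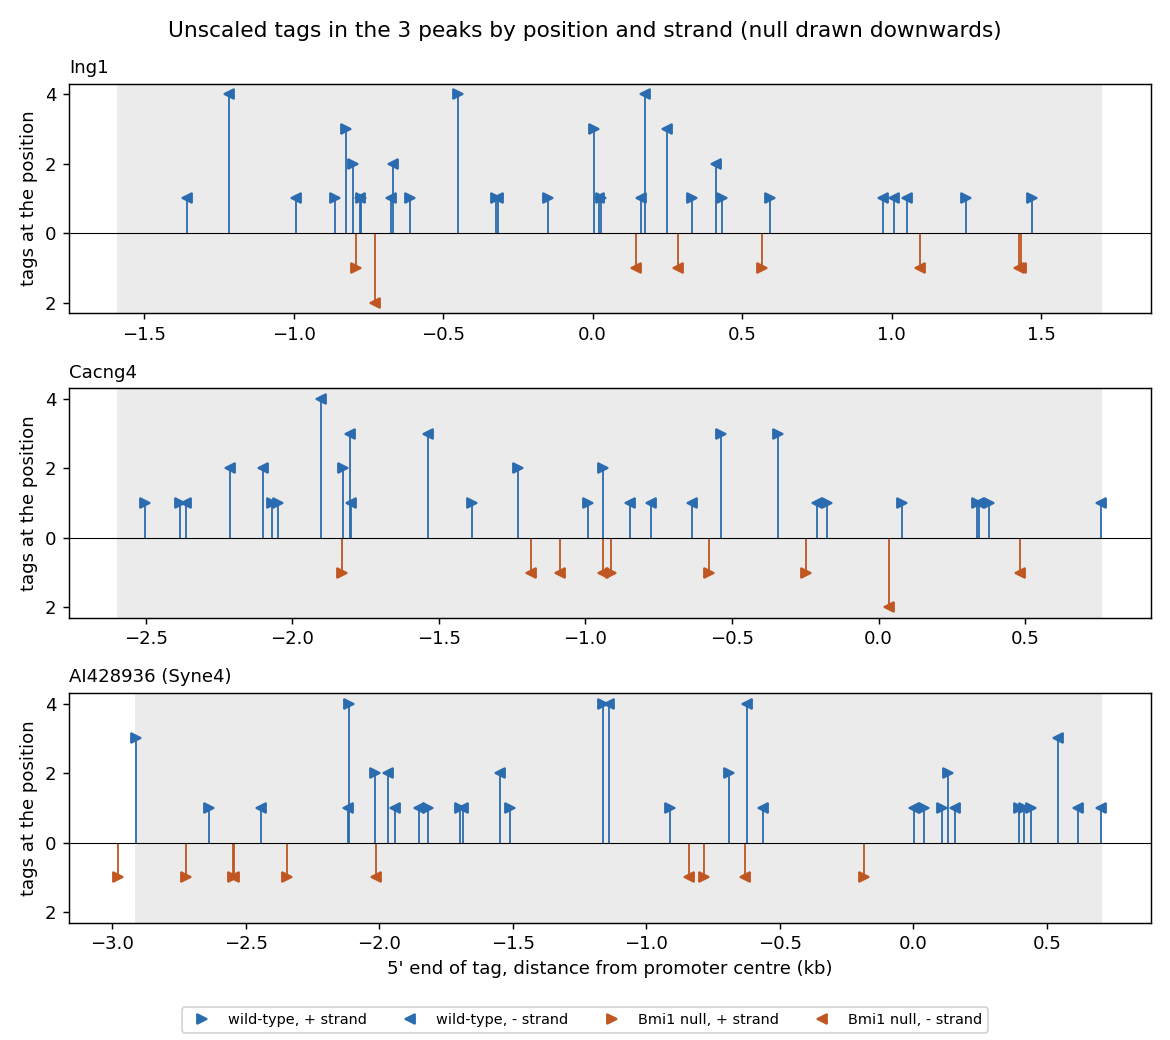
Number of unscaled tags at each position in the 3 peaks, with wild-type tags drawn upwards and null tags downwards, against the distance of the 5' end of the tag from the promoter centre in kb. Arrowheads show the strand and grey the listed peak. No position holds more than 4 tags, and both strands occur along the length of each peak.

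The sub-structure of the peaks was seen in the single tags. The 48 wild-type tags of Ing1 lay at 30 positions, the 44 of Cacng4 at 28 and the 52 of AI428936 at 31. In each peak the fullest position held 4 tags, which was also the median across promoter peaks. That no peak rested on a single stack follows from the choice by width. The plus strand held 23 of the tags at Ing1, 22 at Cacng4 and 27 at AI428936, and the minus strand 25, 22 and 25. Repeats, meaning further tags that share position and strand with another, made up 37.5% of the wild-type tags at Ing1, 36.4% at Cacng4 and 40.4% at AI428936. Their share was 33.0% in the whole wild-type library and had a median of 41.2% across promoter peaks. The null tags of the peaks lay at 8, 9 and 10 positions in the same order, counted with 5' ends shifted toward the middle of the fragment.

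The sources used here do not state how tags are joined into a peak. Runs of shifted wild-type tags with gaps of at most 2 fragment lengths returned 99.8% of the 16406 listed peaks, the 3 peaks among them, with both edges off by at most 1 bp and an equal tag number. Under this rule, which was inferred from the data, the widest gap tells how close a peak was to being split. At AI428936 this gap was 462 bp, and 0.745% of promoter peaks had a gap as wide. It was 430 bp at Ing1 and 382 bp at Cacng4, against a median of 267 bp. Most promoter peaks were narrower, with a median width of 995 bp. In the other peaks over 3 kb the gap was 458 bp at Ceacam16 and 371 bp at Mpped1. With a joining gap of at most 1 fragment length, the Ing1 peak became 2 pieces, Cacng4 4 and AI428936 5. The Ing1 peak then stayed nearly whole, with 46 of its 48 tags in a piece 2639 bp wide. At Cacng4 the fullest piece held 22 tags in 1058 bp at the end far from the promoter centre, with 1 null tag there. The other pieces of Cacng4 held 9, 8 and 5 wild-type and 4, 4 and 1 null tags. At AI428936 the fullest piece held 25 wild-type and 3 null tags in 1420 bp, and the piece over the promoter centre held 14 wild-type tags and 1 null tag. At this joining distance the Ing1 peak was therefore nearly continuous and those of Cacng4 and AI428936 were rows of shorter pieces. With 44 to 52 tags a peak, gaps of this size also depend on depth, and whether the pieces are separate was not tested.

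When each tag was extended to the stated fragment length, wild-type fragments covered 94.0% of the Ing1 peak, 91.9% of that of Cacng4 and 91.3% of that of AI428936. Null fragments, which came from the larger library, covered 44.9%, 50.5% and 45.6%. At most 13 wild-type fragments overlapped at Ing1 and 10 at each of the other genes, and at most 3 null fragments overlapped in any of the 3 peaks. At Cacng4 the 10 null tags also formed a single run when joined like the wild-type tags, 2314 bp wide and from -1830 to 484 bp of the promoter centre. In the other peaks the null tags fell into 3 runs each.

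**Figure D3:**
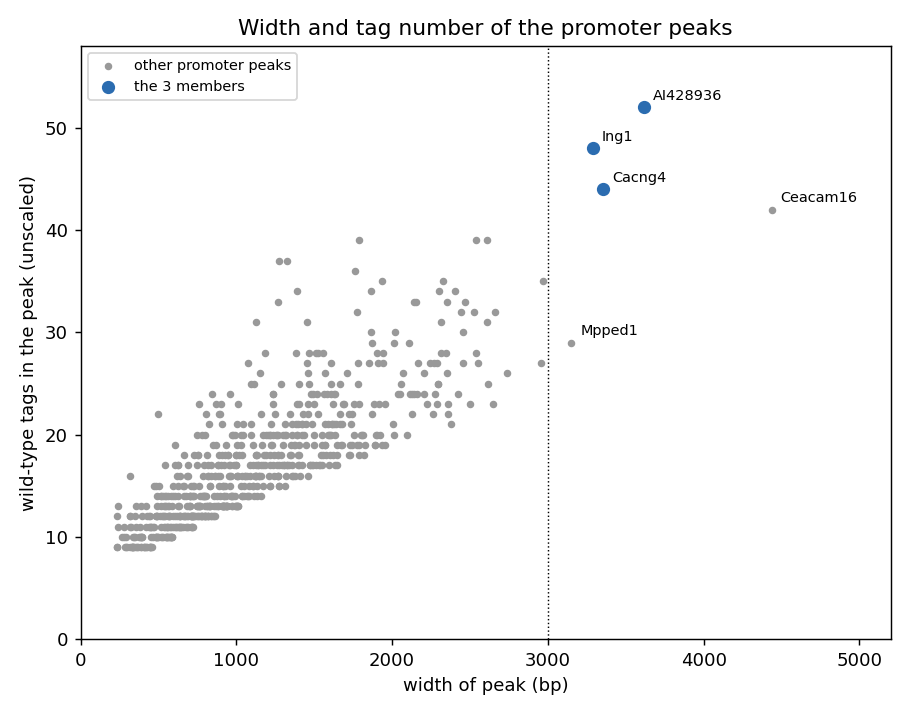
Width of each promoter peak in bp against its number of unscaled wild-type tags, with a dotted line at 3 kb. The 3 genes hold 44 to 52 tags, and Ceacam16 is wider with 42 tags.

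A peak chosen for its width is drawn from wild-type tags, so the tag numbers of the 3 peaks are not independent of the choice. AI428936, Ing1 and Cacng4 had the most wild-type tags of all 671, ahead of Ceacam16 with 42, and the median was 16. Per kb of peak, however, the wild-type tags numbered 14.6 at Ing1, 13.1 at Cacng4 and 14.4 at AI428936, below the median of 16.1. The null library gave 2.74, 2.98 and 2.49 tags per kb in the same order, against a median of 2.57. The lower quartile of the wild-type density was 13.4 tags per kb, so Ing1 and AI428936 lay between it and the median, and Cacng4 lay just below it. All 3 were above 5-fold in scaled tags, as were 90.9% of promoter peaks, and nothing is read from this because the list was selected on that contrast. With 1 tag per position and strand, none of the 3 reached 5-fold, while 55.4% of promoter peaks did, where 0 null tags were taken as 1. The ratios then were 4.81 at Ing1 (2.15 to 12.1), 3.99 at Cacng4 (1.83 to 9.61) and 4.42 at AI428936 (2.05 to 10.6), and their intervals include 5.

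**Figure D4:**
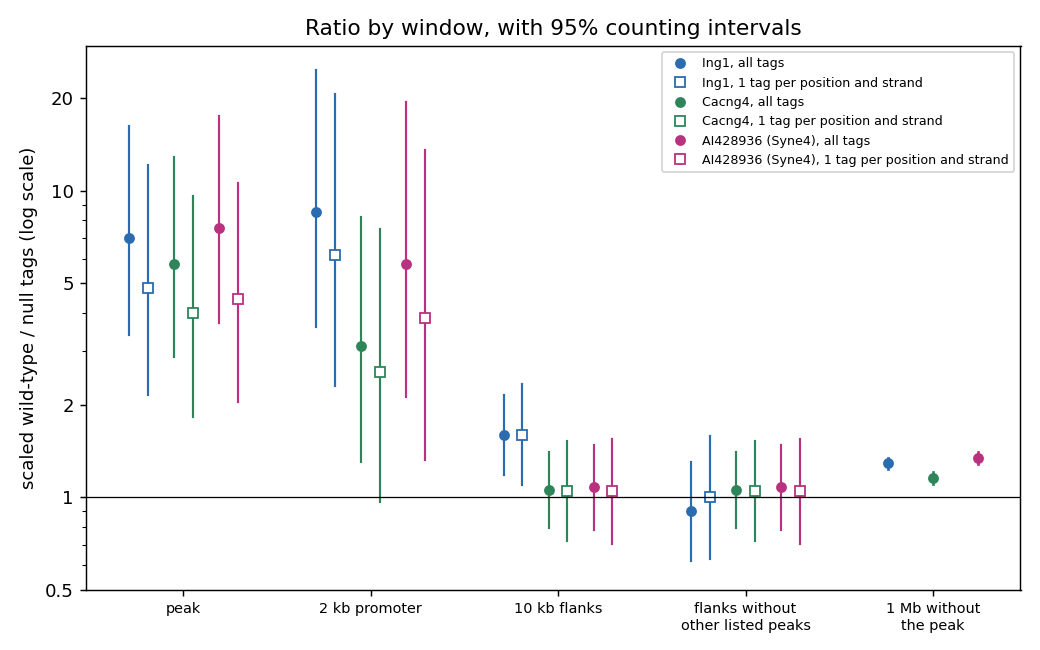
Ratio of scaled wild-type to null tags, on a log scale, in windows of growing size around the 3 promoters. Lines are 95% counting intervals, filled points are all tags and open squares 1 tag per position and strand. Ratios near or above 4 in the peaks fall to 1.06 and 1.08 in the flanks of Cacng4 and AI428936.

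The flanks, 10 kb on each side beyond a gap of 500 bp, had their highest ratio at Ing1. They held 102 wild-type and 84 null tags at Ing1, a ratio of 1.59 (1.18 to 2.15). At Cacng4 there were 91 and 113 tags, a ratio of 1.06 (0.793 to 1.40), and at AI428936 74 and 90 tags, a ratio of 1.08 (0.782 to 1.48). Among promoter peaks, 32.8% had a flank ratio whose interval lay above 1, and with 1 tag per position and strand 18.5% did. Ing1 was in that group both ways, with 1.60 (1.10 to 2.34) for the latter. With all tags scaled within 1 Mb and not by library totals, the flank ratio of Ing1 was lower, 1.235, and no interval was calculated for it. The excess of Ing1 lay on the lower side, with 70 wild-type and 37 null tags, while the upper side had 32 and 47. When other listed peaks were left out of the flanks, a step added after the data were seen, Ing1 kept 51 wild-type and 74 null tags, a ratio of 0.904 (0.620 to 1.31). With 1 tag per position and strand it kept 36 and 46 tags, a ratio of 1.004 (0.630 to 1.59), and both intervals include 1. Listed peaks were called on wild-type over null tags, so leaving them out was bound to lower the ratio. The flanks of Cacng4 and AI428936 hold no other listed peak. The difference of Ing1 from the other genes was not tested.

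Over 1 Mb around the promoter centre, without the peak, the ratio was 1.29 (1.24 to 1.35) at Ing1, 1.15 (1.10 to 1.21) at Cacng4 and 1.35 (1.29 to 1.41) at AI428936. The median across promoter peaks was 1.14. All 3 genes thus lay in surroundings with slightly more scaled wild-type than null tags. The peak ratios were higher than these, but nothing is read from this because the peaks were selected on that contrast.

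Neighbouring peaks were found closest to Ing1. The list held 2 other peaks within 10 kb of its promoter centre, and 0 for Cacng4 and AI428936. Of the promoter peaks, 3.73% had 2 or more. The lower neighbour of Ing1 reached from 11545370 to 11548214 on chromosome 8 and was 2845 bp wide. It had 37 wild-type beside 7 null tags. The upper neighbour reached from 11561541 to 11562664 and held 14 tags of the wild-type and 3 of the null library. With 1 tag per position and strand the ratio of this upper peak was 3.42 with an interval from 0.821 to 20.01, which includes 1. Within 100 kb, each of the 3 genes had 5 other listed peaks, against a median of 2. Within 1 Mb there were 34 for Ing1, 23 for Cacng4 and 27 for AI428936, against a median of 21.

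Rab20, which encodes a small GTPase of the Rab family, had the only other promoter peak within 100 kb of any of the 3 genes. This peak, on chromosome 8 from 11479032 to 11480430, held 23 wild-type and 2 null tags, and 31.45% of it lay in the promoter. The 2 kb promoter of Rab20 held 19 wild-type and 21 null tags, a ratio of 1.19 with an interval from 0.604 to 2.32, which includes 1. The nearest listed peak to AI428936 was 1156 bp wide and began 12.2 kb above its promoter centre, with 17 wild-type and 2 null tags. For Cacng4 the nearest began 30.4 kb above the centre, with 13 wild-type and 0 null tags.

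Related genes were looked up in the table of promoter peaks by current and older names. Of the 5 genes of the inhibitor of growth family, Ing1 had one. Of the 8 genes of the calcium channel gamma group, Cacng4 and Cacng3 had one, and Cacng3, another companion of AMPA receptors, had a peak of 995 bp with 18 wild-type and 4 null tags. Of the 4 nesprin genes and the genes Sun1 and Sun2, whose products anchor nesprins at the nuclear envelope, AI428936 had one. Since Ing1, Cacng4 and AI428936 were chosen for their peaks, the count that bears on the families is 1 of the 16 other genes, and it was not set against the share of all genes. The other promoter peaks over 3 kb belonged to Ceacam16, an adhesion-related protein of the inner ear, with 42 wild-type and 4 null tags, and to Mpped1, with 29 and 6.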

How the data were processed

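The authors sequenced 1 uH2A library per genotype and deposited the 25 bp tags mapped to mm8 with at most 2 mismatches, 1 line per tag, not normalized. They also deposited a list of 16406 peaks, called on wild-type tags with null tags as background. In it the authors give a count of wild-type tags per peak, a fold enrichment and a p-value; the fold and p-value were not used. Peak and promoter coordinates came from the promoter peak table of the study.

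Tags were counted at the lower end of the alignment with Python 3.11.15, numpy 2.4.6, pandas 2.3.3 and scipy 1.17.1, in code tested on simulated data. For sub-structure, 5' ends were shifted by 116 bp and joined over gaps of up to 464 bp, with 232 and 348 bp as alternatives. Wild-type tags were scaled by library totals (1.31), and by the totals of the tags kept where these were 1 per position and strand (1.28) or free of mismatches (1.37). No test was made. Members and lists were chosen with earlier results of these data known. Genes named are the 3 members, other promoter peaks over 3 kb, family members with a promoter peak, and neighbours within 100 kb with one. A gene taken by a further part of this rule is not reported here.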

Additional observations from a re-analysis of the deposited data

How the results depend on the processing

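No paired analysis was possible because each genotype has 1 library, and for the same reason no replicate could be left out. Of 105 comparisons with an alternative, 90 stayed within the counting interval or within 1.5 times of the value reported. With 0-mismatch tags only, the peak ratio of Ing1 was 17.2, its promoter ratio 33.0 and the promoter ratio of Cacng4 1.15; the cause was not tested. With other listed peaks left out, an alternative added after the data were seen, the flank ratio of Ing1 was 0.904, with an interval that includes 1, because the 2 neighbouring peaks lay in its flanks. The highest bin of Cacng4 was 4.13 tags with 1 tag per position and strand, and that of AI428936 was 21.0 tags per 200 bp in bins of 100 bp. The pieces of the peak numbered 2, 4 and 5 at Ing1, Cacng4 and AI428936 with gaps of 1 fragment length, and 2 each with 1.5 fragment lengths, since shorter gaps join fewer tags. With unshifted 5' ends they numbered 2 at AI428936; the cause was not tested. Among all listed peaks, 0.390% were as wide as that of Ing1 and 0.171% as that of AI428936. Null counts of 9 or 10 tags per peak limit the precision of every peak ratio.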

Other observations

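Tags stacked at the same position and strand often differed in their number of mismatches. Of the stacks of 2 or more wild-type tags, 6 of 9 held more than 1 mismatch class in the Ing1 peak, 5 of 10 in the Cacng4 peak and 9 of 11 in the AI428936 peak. In the whole wild-type library this share was 62.0%, and in the null library 62.1%.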
